A study of Mus musculus with 7 samples.

Results

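Meis1, Meis2, Meis3, Pbx2 and Pbx3, 5 of the 32285 genes counted in the series, encode homeodomain proteins that pair with Hox proteins on DNA. The genes were taken by symbol and followed in neural crest lineage cells of mouse embryos, in 44451 of the 53875 cells kept after quality filters. These cells were mesenchymal (at least 2 UMIs of Twist1, Prrx1 and Prrx2 summed) or neural (at least 1 UMI of Sox2 and 0 of Twist1), where a UMI is 1 counted mRNA molecule. Each class was divided by Hox UMIs into cells with any of Hoxa3, Hoxb3 or Hoxd3 (Hox group 3 cells), cells with Hoxa2 but none of those genes (Hoxa2 alone cells) and cells with none of the 4 genes (no Hox cells). Hoxa2 marks crest of the second pharyngeal arch and the arches behind it, whereas the group 3 genes mark crest of the third arch and the arches behind it.

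Meis and Pbx proteins belong to the TALE class, named for a loop of extra amino acids in the homeodomain. They bind DNA together with Hox proteins and with each other, and this gives Hox proteins much of their choice of target sites. Hox genes are silent in first arch crest and active in crest of the arches behind it, and Meis and Pbx genes are known to be needed for development of the arches and of the outflow tract of the heart.

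The study sorted EGFP-positive cells from embryos of mixed Swiss-Webster background carrying Wnt1-Cre/+;ROSA-EGFPf/+ and sequenced the 3′ ends of their mRNA in 7 libraries. Controls gave 1 library at E8.5, 1 at E9.5 and 2 at E10.5, and embryos that also carried the Tbx1 mutation gave 1 at E9.5 and 2 at E10.5. The titles of the mutant libraries read Tbx1null and the study describes homozygous loss, whereas their genotype field reads Tbx1+/-, so they are called Tbx1 null here as labelled in the titles. Each library pooled embryos of 1 genotype. Wnt1-Cre marks dorsal neural tube as well as neural crest, and every library held cells of both kinds. The dissection took the front of the embryo at E8.5, the pharyngeal region with the first arch and the heart at E9.5, and arches 2 to 6 (in the null, the region below the first arch) with the heart at E10.5. Stage and dissection therefore cannot be told apart. The E8.5 library was made with kit version 2, the 3 other controls and 1 E10.5 null library with version 3.1, and the E9.5 null and the other E10.5 null library with version 3.

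Libraries held 5987 to 12047 barcodes and 140264662 to 234844769 UMIs, and no pair of libraries shared more than 44 barcodes. Tbx1, the targeted gene, gave 0.555 CPM (UMI counts per 1000000 UMIs of the library or class) in the E8.5 control, 0.952 in the E9.5 control, 5.92 and 4.14 in the E10.5 controls, 0.535 in the E9.5 null and 2.92 and 2.96 in the E10.5 nulls. Tbx1 is made mainly by tissues next to the crest, so these low levels check the genotype labels little. Among fixed markers that the class rules did not use, 3 of mesenchymal crest (Pdgfra, Snai1 and Col3a1) summed to 126 to 340 CPM in mesenchymal and 6.43 to 16.2 CPM in neural cells at E9.5 and E10.5, and 5 of neural progenitors (Sox1, Pax6, Hes5, Zic1 and Pax3) to 8.27 to 199 and 537 to 1116 CPM. With Sox2, which the neural rule used, the 6 neural progenitor markers were at 12.1 and 37.1 CPM in mesenchymal cells of the E10.5 controls and at 99.5 and 273 CPM in those of the E10.5 nulls. The share of mesenchymal cells in the Hox group 3 class was 32.8% and 24.9% in the E10.5 controls but 57.6% and 77.2% in the E10.5 nulls. Both differences accompany the genotype comparison of E10.5 mesenchymal cells. At E9.5 the group 3 share was 20.5% in the control and 17.3% in the null, and the neural progenitor markers of mesenchymal cells were at 43.0 and 42.8 CPM. In E10.5 neural cells these markers overlapped between genotypes, at 828 and 1476 CPM in the controls and 1133 and 1184 CPM in the nulls.

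Meis1 lies on chromosome 11 (18879817 to 19018985, minus strand), Meis2 on chromosome 2 (115863064 to 116065839, minus), Meis3 on chromosome 7 (16175090 to 16186504, plus), Pbx2 on chromosome 17 (34591266 to 34597400, plus) and Pbx3 on chromosome 2 (34171457 to 34373142, minus), by GENCODE coordinates on GRCm38, the assembly behind the mm10 build of the files. In the GENCODE annotation other genes overlap Meis1 on both strands, Pbx2 on the same strand (Gpsm3, at its 5′ end) and Pbx3 on the opposite strand (C79798), so a part of their UMIs could belong to those loci. The sequence before Meis1 is shown because Meis1 was the 1 of the 5 genes called between E9.5 and E10.5 in mesenchymal cells. RefSeq held a promoter window for 4 of the 5 genes. The line gives the 234 bases before the annotated Meis1 gene, chr11:19018986-19019219 on GRCm38.p6, read on the minus strand, with a CCAAT box in capitals that begins 54 bases before the RefSeq start.
Meis1 promoter: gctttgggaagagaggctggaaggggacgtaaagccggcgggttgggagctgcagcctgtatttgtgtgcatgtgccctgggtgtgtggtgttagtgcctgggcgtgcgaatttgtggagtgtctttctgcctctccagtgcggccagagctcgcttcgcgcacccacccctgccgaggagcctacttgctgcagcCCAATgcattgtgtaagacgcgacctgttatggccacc
This window was 60.3% G or C, against a median of 52.1% over 32851 promoters, and CCAAT stood in 32.5% of promoter windows of the same length. No match on either strand was found for the Meis motif TGACAG (in 15.0% of promoters) or the Hox and Pbx motif TGATTNAT (2.68%). These are matches of letters in 1 window and not measured binding.

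In mesenchymal cells, Meis1, Meis2, Pbx2 and Pbx3 were lowest by CPM at E8.5 and higher at each later stage, and Meis3 was not. The E8.5 control was the only library of kit version 2, and the share of all genes with this order was not counted. Levels are CPM of summed UMIs in each library, and they are compared between libraries and not between genes. Meis1, whose protein is a Hox partner also needed in blood and eye development, was at 9.19 CPM in the E8.5 control (95% Poisson interval, for counting error only, 8.49 to 9.94). It was at 24.3 CPM in the E9.5 control and 23.8 CPM in the E9.5 null, and at 123 and 128 CPM in the E10.5 controls and 114 and 157 CPM in the E10.5 nulls. The order was thus E8.5, E9.5, E10.5 with no overlap between stages, while both genotypes overlapped at E10.5. Meis2, which crest needs to form the cranial skeleton and the outflow tract, was at 68.5 CPM at E8.5, 216 and 203 CPM in the E9.5 control and null, 440 and 625 CPM in the E10.5 controls and 381 and 491 CPM in the E10.5 nulls. Meis3, a gene best known from hindbrain patterning, was at 19.9 CPM at E8.5, 19.7 and 18.2 CPM in the E9.5 control and null, 16.6 and 12.4 CPM in the E10.5 controls and 25.7 and 43.9 CPM in the E10.5 nulls. Its E8.5 and E9.5 levels lay between those of the E10.5 controls and the E10.5 nulls, which did not overlap.

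By CPM both Pbx genes were lowest at E8.5 and highest at E10.5, although neither passed the test of E10.5 against E9.5 given below. Pbx2, whose loss alone leaves the mouse largely normal, was at 24.7 CPM at E8.5, 71.7 and 74.9 CPM in the E9.5 control and null, 113 and 87.4 CPM in the E10.5 controls and 183 and 143 CPM in the E10.5 nulls. The E10.5 null library made with kit version 3 held the highest Pbx2 level, and kit and genotype can be told apart only in part. Pbx3, needed in the hindbrain for breathing at birth, was at 17.2 CPM at E8.5, 47.1 and 48.0 CPM in the E9.5 control and null, 88.2 and 88.7 CPM in the E10.5 controls and 78.5 and 108 CPM in the E10.5 nulls. The E10.5 genotypes overlapped for Pbx3.

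**Figure D1:**
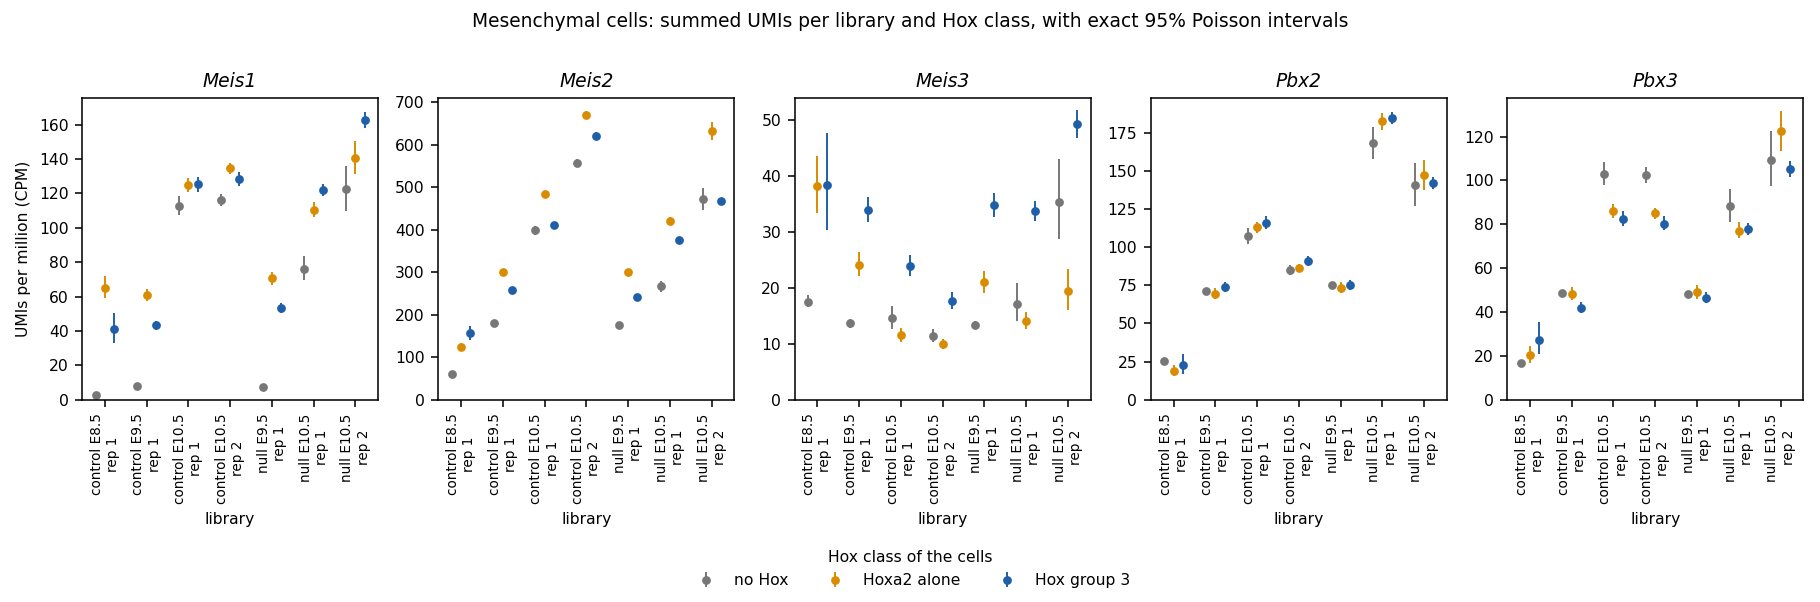
CPM of summed UMIs in mesenchymal cells of each library (x axis) for each gene (panels), by Hox class (grey, no Hox; orange, Hoxa2 alone; blue, Hox group 3); bars are exact 95% Poisson intervals. The grey Meis1 points sit at 2.74 to 8.08 CPM before E10.5 and at 76.1 to 122 CPM from then on, whereas from E9.5 on the grey and blue Pbx2 points lie together in each library.

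The difference between E10.5 and E9.5 was tested with edgeR over both genotypes, with genotype as a term, since E9.5 had 1 library per genotype. Of all 16286 genes tested in mesenchymal cells 24.6% were called at an adjusted p under 0.05, and 1 of the 5 genes was. Meis1 rose by a log2 fold change of 1.92 ± 0.18 (SE), that is 3.77-fold, with an adjusted p of 0.00359. The call was lost without the E9.5 control library (log2 1.94, adjusted p 0.061). Meis2 changed by 0.68 ± 0.22 (adjusted p 0.0574) and Pbx3 by 0.41 ± 0.16 (adjusted p 0.10), and neither passed the threshold. Without E10.5 null replicate 1 both did, Meis2 at 0.75 (adjusted p 0.0431) and Pbx3 at 0.48 (adjusted p 0.0421), as they did after thinning to 5000 UMIs, at 0.81 (adjusted p 0.020) and 0.57 (adjusted p 0.037). Meis2 was called in 5 of 16 alternatives, the others being DESeq2 (0.64, adjusted p 0.016), stricter class thresholds (0.72, adjusted p 0.039) and no filter on low counts (0.64, adjusted p 0.044). In every fit after thinning, cell and Hox classes were redrawn from the thinned counts, so cells could change class. Pbx2 differed by 0.28 ± 0.22 (adjusted p 0.383) and Meis3 by −0.33 ± 0.32 (adjusted p 0.479).

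By fitted size, the rise of Meis1 was larger in mesenchymal cells without Hox UMIs than in either Hox class. No Hox cells held Meis1 at 2.74 CPM at E8.5 (2.34 to 3.19), 8.08 and 7.41 CPM in the E9.5 control and null, 113 and 116 CPM in the E10.5 controls and 76.1 and 122 CPM in the E10.5 nulls. Fitted on no Hox cells alone, where 34.4% of all genes were called, Meis1 rose by 3.23 on the log2 scale (adjusted p 0.00015) and Pbx3 by 0.51 (adjusted p 0.044). On Hox group 3 cells alone, with 23.2% of genes called, Meis1 rose by 1.06 (adjusted p 0.00689) and Pbx3 by 0.55 (adjusted p 0.047). On Hoxa2 alone cells, with 16.4% called, the Meis1 difference was 0.60 (adjusted p 0.056) and Meis3 fell by 1.13 (adjusted p 0.015). These fits by class were added after the data were seen. Smooth muscle, epithelial and neuron markers were also higher by CPM at E10.5 in no Hox mesenchymal cells, whereas glial or migrating crest markers overlapped between the stages. The sum of 4 smooth muscle markers was 34.4 and 34.7 CPM at E9.5 and 218 to 652 CPM at E10.5, and that of 4 epithelial markers 15.3 to 17.1 CPM and 38.1 to 94.1 CPM, with at least 3 of the 4 markers of each list detected. Neuron markers went from 9.70 to 13.5 CPM at E9.5 to 26.6 to 241 CPM at E10.5. Their part in the Meis1 rise was not tested.

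To ask whether the cofactor genes follow the Hox code, the Hox classes of each library were compared with library as a block over the 6 libraries of E9.5 and E10.5. In Hox group 3 mesenchymal cells Meis2 and Meis3 were higher and Pbx3 was lower than in no Hox cells, while in Hoxa2 alone cells Meis2 was the 1 gene called. In the first comparison 3 of the 5 genes were called, beside 8.74% of 14092 genes, and in the second 1 of 5, beside 0.788%.

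Meis3 showed the largest called difference between Hox group 3 and no Hox mesenchymal cells. At E9.5 the control held 13.6 CPM in no Hox and 33.9 CPM in group 3 cells, and the null 13.4 and 34.7 CPM. At E10.5 the controls held 14.6 and 11.3 CPM in no Hox and 23.8 and 17.6 CPM in group 3 cells, and the nulls 17.1 and 35.3 CPM in no Hox and 33.6 and 49.2 CPM in group 3 cells. The level was higher in group 3 cells in 6 of 6 libraries, by 0.95 ± 0.15 on the log2 scale or 1.93-fold (adjusted p 0.00132). Hoxa2 alone cells held Meis3 at 24.1 and 20.9 CPM at E9.5, 11.5 and 9.91 CPM in the E10.5 controls and 14.1 and 19.5 CPM in the E10.5 nulls. They were thus above no Hox cells in both E9.5 libraries and below them in 4 of 4 E10.5 libraries, and the difference over both stages was 0.06 ± 0.15 (adjusted p 0.936). In 6 of 6 libraries the group 3 level exceeded the Hoxa2 alone level, by 0.49 to 1.34 on the log2 scale. Neural progenitor markers moved in the same direction: their sum was 12.4 to 114 CPM in no Hox and 23.4 to 320 CPM in group 3 mesenchymal cells, with all 6 of the markers detected in each. Glial or migrating crest markers were at 38.5 and 45.6 CPM in no Hox and 133 and 171 CPM in group 3 cells at E9.5, and overlapped between the classes at E10.5 (12.7 to 58.6 and 8.25 to 87.0 CPM). Mesenchymal cells with a UMI of Sox10 held more Meis3 than those without in 5 of 6 libraries, with a median log2 ratio of 0.85. The part of these cells in the Meis3 difference was not tested. The call was lost with control libraries only (0.90, adjusted p 0.053) and with null libraries only (0.98, adjusted p 0.074).

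Meis2 was highest in Hoxa2 alone mesenchymal cells at E9.5 and E10.5. Its levels in no Hox, Hoxa2 alone and Hox group 3 cells were 180, 301 and 257 CPM in the E9.5 control and 175, 300 and 243 CPM in the E9.5 null. They were 398, 484 and 410 CPM and 557, 671 and 620 CPM in the E10.5 controls, and 266, 421 and 375 CPM and 472, 632 and 467 CPM in the E10.5 nulls. Hoxa2 alone cells exceeded both other classes in 6 of 6 libraries. The fitted difference from no Hox cells was 0.54 ± 0.07 for Hoxa2 alone (1.45-fold, adjusted p 0.00316) and 0.27 ± 0.07 for Hox group 3 cells (1.20-fold, adjusted p 0.0213). The Hox group 3 call was lost in 6 of 18 alternatives: without the E9.5 control (0.23, adjusted p 0.091), the E9.5 null (0.25, adjusted p 0.073) or E10.5 null replicate 1 (0.21, adjusted p 0.076), and with control (0.24, adjusted p 0.19), null (0.29, adjusted p 0.21) or E10.5 libraries only (0.18, adjusted p 0.17). The Hoxa2 alone call was lost when the fit held control libraries only (0.45, adjusted p 0.076) or null libraries only (0.62, adjusted p 0.13).

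Pbx3 ran the other way by a small step. It was at 48.6 and 48.2 CPM in no Hox and 41.9 and 46.4 CPM in group 3 mesenchymal cells of the E9.5 control and null. In the E10.5 controls it was at 103 and 102 CPM in no Hox and 82.6 and 80.3 CPM in group 3 cells, and in the nulls at 88.2 and 109 CPM and at 77.8 and 105 CPM. Pbx3 was lower in group 3 cells in 6 of 6 libraries, by a fitted 0.21 on the log2 scale (−0.21 ± 0.04, 1.16-fold lower, adjusted p 0.00908), and with null libraries only the difference was −0.13 (adjusted p 0.52). Pbx2 hardly moved with Hox class, with differences of 0.06 ± 0.04 for group 3 (adjusted p 0.529) and 0.05 ± 0.04 for Hoxa2 alone cells (adjusted p 0.66). Within the 6 libraries of E9.5 and E10.5 its group 3 and no Hox levels differed by at most 0.13 on the log2 scale. In the E8.5 control, which entered no test of Hox class, no Hox, Hoxa2 alone and group 3 mesenchymal cells held Pbx2 at 25.4, 18.8 and 22.7 CPM and Pbx3 at 16.5, 20.3 and 27.4 CPM, so that Pbx3 had the opposite order there. Meis2 at E8.5 was at 60.1, 124 and 156 CPM and Meis3 at 17.5, 38.1 and 38.2 CPM.

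Meis1 differed between Hox classes by stage. At E8.5 it was at 2.74 CPM in no Hox, 65.3 CPM in Hoxa2 alone (58.9 to 72.1) and 41.1 CPM in Hox group 3 cells (32.9 to 50.7), from 1 library with no test. At E9.5 it was at 8.08, 61.0 and 43.2 CPM in the control and at 7.41, 70.6 and 53.3 CPM in the null. At E10.5 the same 3 classes held 113, 125 and 125 CPM and 116, 135 and 128 CPM in the controls, and 76.1, 111 and 122 CPM and 122, 141 and 163 CPM in the nulls. Both Hox classes exceeded no Hox cells in 6 of 6 libraries, by 0.14 to 2.85 on the log2 scale for group 3 and by 0.15 to 3.25 for Hoxa2 alone. Over both stages the differences of 0.94 ± 0.36 (adjusted p 0.135) and 1.10 ± 0.37 (adjusted p 0.17) did not pass the threshold.

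Stage by stage, in fits added after the data were seen, Meis1 was called in each. At E9.5 it was higher by 2.60 in group 3 cells (adjusted p 1.1e-07, with 24.3% of all genes called) and by 3.06 in Hoxa2 alone cells (adjusted p 1e-07, with 6.92% called). At E10.5 the differences were 0.35 (adjusted p 0.014, 10.0% called) and 0.33 (adjusted p 0.013, 19.6% called). Hoxa2 alone cells also differed from no Hox cells in Meis2, which was called at E9.5 and at E10.5. They differed in Meis3 at E9.5 (0.70, adjusted p 0.00033) and in Pbx2 at E10.5 (0.14, adjusted p 0.025). The change between stages was itself tested as an interaction within libraries, in which 12.9% of 15296 genes and 2 of the 5 members were called. The group 3 difference in Meis1 was smaller at E10.5 by 2.19 on the log2 scale (−2.19 ± 0.16, 4.55-fold, adjusted p 4.32e-05), and it was called in all 13 alternatives, at −2.31 to −1.40. That in Meis3 was smaller by 0.52 (−0.52 ± 0.12, 1.43-fold, adjusted p 0.0201), but the call was lost in 6 of 13 alternatives. After thinning each cell to 5000 UMIs it was −0.04 (adjusted p 0.97) and with doublets kept −0.24 (adjusted p 0.18), and it was also lost without the E9.5 control (−0.46, adjusted p 0.121), the E9.5 null (−0.47, adjusted p 0.186), E10.5 control replicate 1 (−0.49, adjusted p 0.0521) or E10.5 control replicate 2 (−0.49, adjusted p 0.0554). Interactions of Meis2 (−0.20, adjusted p 0.34), Pbx2 (0.20, adjusted p 0.0857) and Pbx3 (0.02, adjusted p 0.898) were not called, but that of Meis2 was called in 2 of 13 alternatives, after thinning (−0.37, adjusted p 0.0031) and without E10.5 null replicate 1 (−0.31, adjusted p 0.0181). That of Pbx2 was called in 3 of 13, without a filter on low counts (0.33, adjusted p 0.0036), without E10.5 null replicate 2 (0.22, adjusted p 0.0276) and with doublets kept (0.22, adjusted p 0.047).

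Hoxb2, a gene outside the 4 used for the classes and expressed from the second arch backwards, was higher by CPM in no Hox cells of each E10.5 library than in those of E9.5, which was not tested. It was at 9.19 and 6.24 CPM in no Hox mesenchymal cells of E9.5 and at 31.6, 27.8, 51.9 and 39.9 CPM in those of E10.5. In group 3 cells it was at 105 and 112 CPM at E9.5 and at 92.7, 73.3, 135 and 75.5 CPM at E10.5. No Hox cells were also shallower at E10.5, with a median of 17049 UMIs against 24513 in group 3 cells of control replicate 1 and 13677 against 17401 in control replicate 2, whereas at E9.5 the medians were 24307 and 25882 in the control. The part of cells that had Hox mRNA without a counted UMI in the Meis1 pattern was not tested.

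In neural cells, the levels of the 5 genes were higher in the E9.5 control than in the E8.5 control, which have no replicate. These libraries were made with kit versions 3.1 and 2, and the share of all genes higher in the E9.5 control was not counted. Meis1 was at 16.9 CPM at E8.5, 62.0 and 63.0 CPM in the E9.5 control and null, 97.5 and 77.9 CPM in the E10.5 controls and 97.1 and 103 CPM in the E10.5 nulls. Meis2 was at 42.9 CPM at E8.5, 232 and 180 CPM at E9.5, 331 and 363 CPM in the E10.5 controls and 238 and 329 CPM in the E10.5 nulls. For Meis3 the values were 21.6 CPM, then 34.3 and 41.3 CPM, then 43.3 and 34.7 CPM in the controls and 64.5 and 70.1 CPM in the nulls. Thus Meis1 and Meis2 did not overlap between stages, while the E10.5 control levels of Meis3 overlapped those of E9.5. Pbx2 went from 27.2 CPM at E8.5 to 76.3 and 78.3 CPM at E9.5, 105 and 81.7 CPM in the E10.5 controls and 160 and 124 CPM in the E10.5 nulls. Pbx3 went from 21.2 CPM to 62.9 and 62.4 CPM, then 96.1 and 87.5 CPM in the controls and 87.2 and 102 CPM in the nulls. Neither Pbx gene overlapped between stages. Between E9.5 and E10.5 none of the 5 genes was called, beside 9.08% of 14828 genes, and by edgeR none had an unadjusted p under 0.05. Their differences were 0.10 to 0.27 on the log2 scale. In no Hox neural cells alone, where 6.78% of genes were called, Meis1 was 1.24 higher at E10.5 (adjusted p 0.014).

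Hox group 3 neural cells held more Meis2 and Meis3 than no Hox neural cells, and 2 of the 5 genes were called beside 19.1% of 11776 genes. No Hox neural cells lacked UMIs of the 4 class genes but not of all Hox genes. Over the libraries of E9.5 and E10.5 they held Hoxb2 at 71.6 to 203 CPM, against 131 to 261 CPM in group 3 neural cells. Hoxd4 was at 16.0 to 40.0 CPM against 91.8 to 183 CPM. Meis3 was at 27.5 and 31.0 CPM in no Hox and 39.7 and 48.8 CPM in group 3 neural cells of the E9.5 control and null. At E10.5 it was at 37.0 and 32.4 CPM against 45.3 and 35.0 CPM in the controls, and at 44.0 and 50.0 CPM against 66.3 and 71.6 CPM in the nulls. It was higher in group 3 cells in 6 of 6 libraries, by 0.48 ± 0.07 or 1.39-fold (adjusted p 0.000208), and with control libraries only by 0.35 (adjusted p 0.13). Meis2 was at 134 and 133 CPM in no Hox against 234 and 172 CPM in group 3 neural cells at E9.5, at 308 and 232 CPM against 331 and 387 CPM in the E10.5 controls, and at 207 and 207 CPM against 239 and 339 CPM in the E10.5 nulls. It too was higher in 6 of 6 libraries, by 0.50 ± 0.14 or 1.42-fold (adjusted p 0.0142), a call lost with control libraries only (0.55, adjusted p 0.11) and with null libraries only (0.44, adjusted p 0.16). Markers of other neural cell types moved with this split. The 4 neuron markers summed to 133 and 143 CPM in no Hox against 267 and 272 CPM in group 3 neural cells at E9.5, and to 190 to 562 CPM against 870 to 1839 CPM at E10.5. The 4 glial or migrating crest markers were at 198 and 225 CPM in no Hox against 44.6 and 76.2 CPM in group 3 neural cells at E9.5, and at 146 to 475 CPM against 67.8 to 337 CPM at E10.5. All 8 of these markers were detected in each, and their part in the Meis2 and Meis3 differences was not tested.

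Meis1 was not called over both stages in neural cells (0.35 ± 0.16, adjusted p 0.149). At E9.5 it was at 27.8 and 37.2 CPM in no Hox, 82.0 and 78.7 CPM in Hoxa2 alone and 72.0 and 68.6 CPM in group 3 neural cells. At E10.5 no Hox neural cells held 111 and 66.9 CPM in the controls and 114 and 87.2 CPM in the nulls, and group 3 neural cells 92.5 and 79.0 CPM and 90.0 and 103 CPM. Hoxa2 alone neural cells held 133 and 81.1 CPM in the E10.5 controls and 161 and 109 CPM in the nulls. Hoxa2 alone exceeded no Hox cells in 6 of 6 libraries, whereas group 3 exceeded no Hox cells in both E9.5 libraries and in 2 of 4 at E10.5. Fitted by stage, the group 3 difference was 1.15 at E9.5 (adjusted p 3.8e-11, 15.0% of genes called) and −0.06 at E10.5 (adjusted p 0.78, 18.5% called). The interaction of −1.21 ± 0.15 (2.31-fold, adjusted p 7.41e-05) made Meis1 the 1 member of 5 called there, beside 3.47% of 13573 genes. After thinning to 5000 UMIs the Meis1 interaction was −0.16 (adjusted p 0.80), and the Meis2 interaction turned from −0.17 (adjusted p 0.635) to 0.48 (adjusted p 0.034). Classes were redrawn from the thinned counts there, so depth and class membership changed together. Over both stages Meis1 was called without E10.5 null replicate 1 (0.51, adjusted p 0.0499), without a filter on low counts (0.40, adjusted p 0.0085) and after thinning (0.21, adjusted p 0.0067). Pbx3 differed by 0.17 ± 0.08 (adjusted p 0.145) and was called in 4 of 18 alternatives, at E9.5 alone (0.24, adjusted p 0.012), without a filter (0.22, adjusted p 0.022), after thinning (0.18, adjusted p 0.023) and without E10.5 control replicate 1 (0.22, adjusted p 0.045). Pbx2 differed by −0.03 ± 0.05 (adjusted p 0.756).

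**Figure D2:**
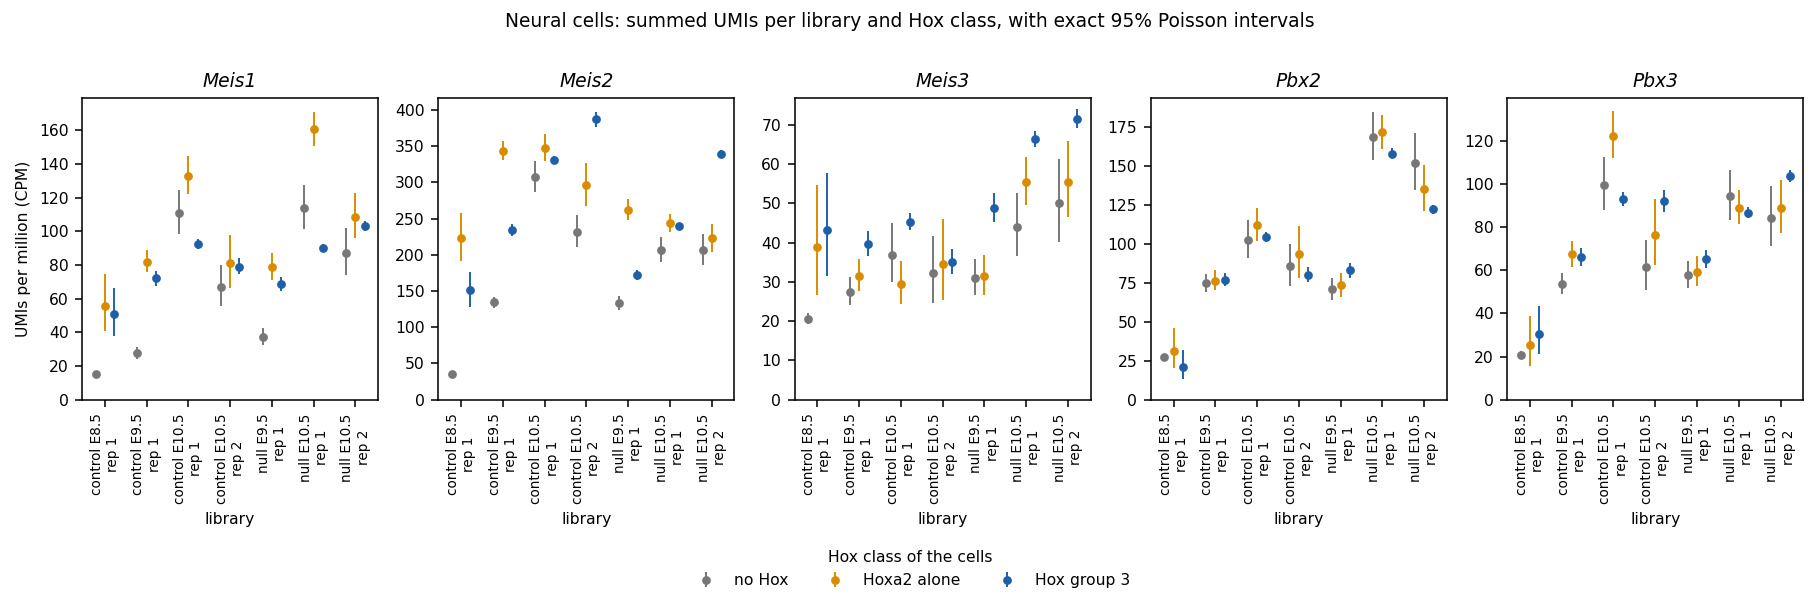
CPM of summed UMIs in neural cells of each library (x axis) for each gene (panels), by Hox class (grey, no Hox; orange, Hoxa2 alone; blue, Hox group 3); bars are exact 95% Poisson intervals, wide where a class is small. Meis1 in no Hox cells sits at 27.8 and 37.2 CPM at E9.5, under both Hox classes. At E10.5 it sits under Hoxa2 alone cells in 4 of 4 libraries and under group 3 cells in 2 of 4.

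Mesenchymal and neural cells of the same library differed in Meis2, Meis3 and Pbx2, 3 of the 5 genes, beside 44.9% of 14997 genes called. Meis3 was lower in mesenchymal cells in 6 of 6 libraries, by 0.68 to 1.49 on the log2 scale in single libraries by CPM and by a fitted 1.07 (−1.07 ± 0.13, 2.11-fold lower, adjusted p 0.000468), and it was called in all 16 alternatives. Cells that met neither class rule held more Meis3 than either class in each E10.5 library, at 114 and 61.3 CPM in the controls and 116 and 143 CPM in the nulls. Meis2 was higher in mesenchymal cells by 0.49 ± 0.09 (1.40-fold, adjusted p 0.0037), in 5 of 6 libraries, and with control libraries only by 0.46 (adjusted p 0.092). Pbx2 was higher by a fitted 0.14 ± 0.04 (1.10-fold, adjusted p 0.0187). By CPM it was higher in the 4 E10.5 libraries, by 0.10 to 0.20, and lower in both E9.5 libraries (−0.09 and −0.06). The Pbx2 call was lost without E10.5 null replicate 1 (0.14, adjusted p 0.063), with control libraries only (0.13, adjusted p 0.33) and with null libraries only (0.15, adjusted p 0.28). Meis1 (−0.06 ± 0.30, adjusted p 0.881) and Pbx3 (−0.10 ± 0.05, adjusted p 0.165) did not pass the threshold. For Meis1 the E9.5 mesenchymal levels of 24.3 and 23.8 CPM lay under the neural levels of 62.0 and 63.0 CPM, and 4 of the 4 E10.5 libraries had the reverse order.

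Loss of Tbx1 was compared at E10.5, with 2 libraries per genotype. In mesenchymal cells none of the 5 genes was called, beside 0.0319% of 15681 genes. An unadjusted p under 0.05 was found for 2205 of all these genes and for 1 of the 5, Meis3. Its levels of 25.7 and 43.9 CPM in the nulls lay above 16.6 and 12.4 CPM in the controls, a log2 difference of 1.06 ± 0.27 or 2.09-fold (unadjusted p 0.00635, adjusted p 0.214). It was called in 3 of 16 alternatives. These were edgeR unfiltered for low counts (1.02, adjusted p 0.0046), edgeR without E10.5 null replicate 1 (1.35) and DESeq2 (1.09, adjusted p 0.018). Calls over all genes also went up there, from 5 in the main fit to 1210 with no filter and 640 with DESeq2. Within 1 Hox class the Meis3 difference was 0.86 in no Hox, 0.48 in Hoxa2 alone and 0.81 in group 3 cells, with adjusted p of 0.28, 0.45 and 0.28. Besides the larger Hox group 3 share and the neural progenitor markers, 4 neuron markers were at 36.0 and 52.7 CPM in control and at 101 and 770 CPM in null mesenchymal cells and 4 glial or migrating crest markers at 8.29 and 9.10 CPM against 41.7 and 76.9 CPM. All members of these lists were detected in every library, and their part in the Meis3 difference was not tested. The other differences were −0.08 ± 0.22 for Meis1, −0.48 ± 0.27 for Meis2, 0.53 ± 0.27 for Pbx2 and −0.12 ± 0.21 for Pbx3, with adjusted p of 0.888, 0.464, 0.424 and 0.826.

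In neural cells of E10.5 none of 15026 genes was called by edgeR (0%), 787 had an unadjusted p under 0.05, and DESeq2 called 44. Meis3 was again the 1 member with an unadjusted p under 0.05, at 64.5 and 70.1 CPM in the nulls against 43.3 and 34.7 CPM in the controls (0.72 ± 0.23, unadjusted p 0.0127, adjusted p 0.887). The null effect was also compared between Hox group 3 and no Hox mesenchymal cells, where 0.465% of 15049 genes and none of the 5 members was called. Meis1 had the smallest adjusted p there, with a null effect higher in group 3 cells by 0.38 ± 0.11 (adjusted p 0.241), and it was called in 3 of 11 alternatives, without E10.5 null replicate 2 (0.58, adjusted p 0.0017), without a filter on low counts (0.39, adjusted p 0.019) and with stricter class thresholds (0.48, adjusted p 0.029). Meis2 was called without E10.5 null replicate 2 too (0.44, adjusted p 0.0038), against 0.11 ± 0.15 with it (adjusted p 0.886). At E9.5 each genotype had 1 library, so no test of genotype was made. Levels of Meis1, Pbx2 and Pbx3 in all mesenchymal cells were 24.3, 71.7 and 47.1 CPM in the E9.5 control and 23.8, 74.9 and 48.0 CPM in the null.

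**Figure D3:**
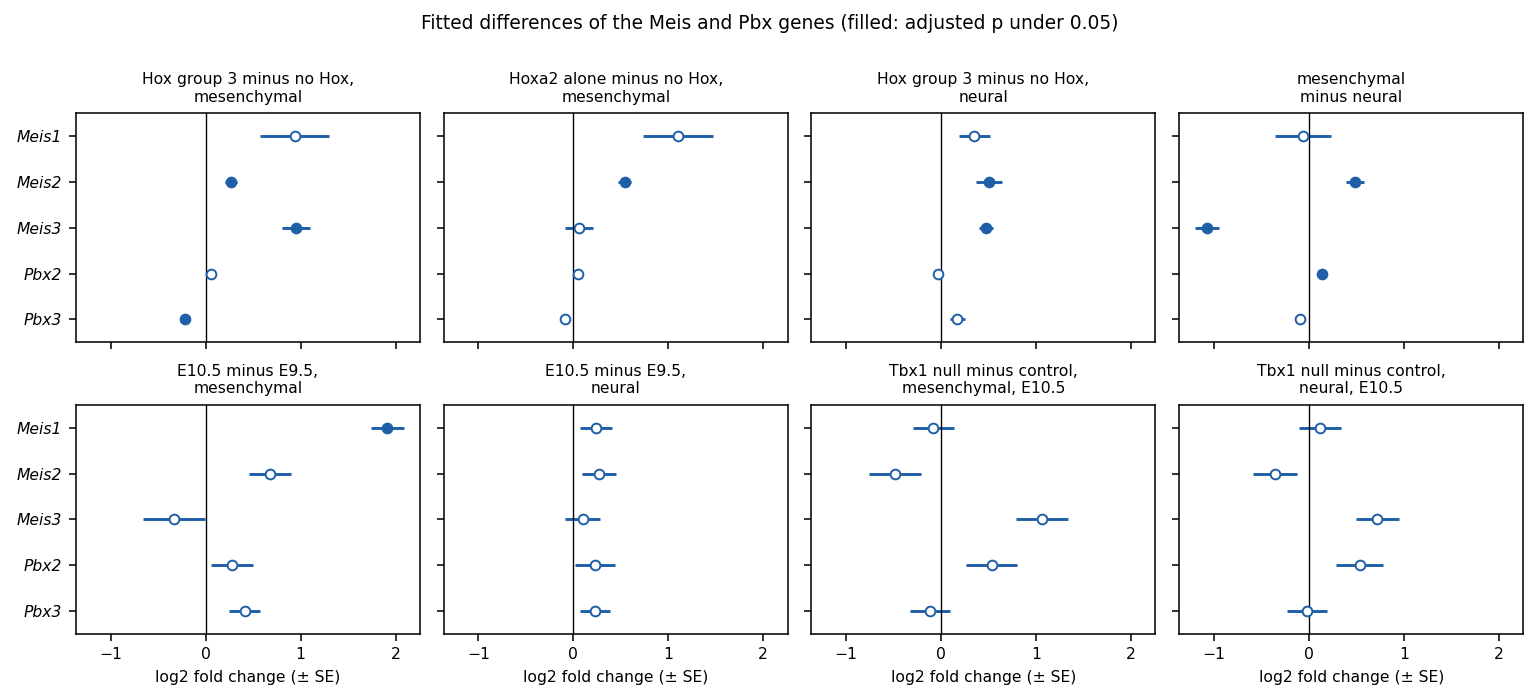
Log2 fold changes (x axis, ± SE) of the 5 genes (y axis) in 8 comparisons fitted with edgeR; filled points have an adjusted p under 0.05. Meis3 is filled in both Hox group 3 panels and, below 0, in mesenchymal minus neural, and the Tbx1 null panels hold no filled point.

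Shares of cells with a UMI show how widely each gene was detected once depth was set equal. Each cell was thinned to 5000 UMIs, from class medians of 16370 to 25537 UMIs in mesenchymal and 11123 to 19457 in neural cells. For these shares the classes were kept from full depth. Meis1 was detected in 3.97% of mesenchymal cells of E8.5, 10.2% and 10.2% of those of E9.5 and 43.0% to 50.5% at E10.5. Meis2 was detected in 26.6% at E8.5, 61.2% and 58.7% at E9.5 and 75.8% to 89.1% at E10.5, and Meis3 in 6.43% to 18.1% over all 7 libraries. Pbx2 went from 11.7% at E8.5 to 29.6% and 31.1% at E9.5 and 35.2% to 59.1% at E10.5, and Pbx3 from 7.83% to 20.6% and 21.3% and then 32.7% to 37.5%. Globin mRNA (Hbb-y or Hba-x), which crest cells should lack, was detected in at most 0.375% of mesenchymal cells in 6 libraries and in 3.70% in E10.5 null replicate 2. In neural cells the shares at E10.5 were 33.1% to 40.4% for Meis1, 62.5% to 74.5% for Meis2 and 15.4% to 27.8% for Meis3.

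Single mesenchymal cells held a mean of 0.607 of the 5 genes at E8.5, 1.31 and 1.30 at E9.5 and 2.07 to 2.38 at E10.5 after thinning. At least 3 of the 5 were detected in 1.22% of E8.5 cells, 9.22% and 9.15% of E9.5 cells and 32.7% to 46.4% of E10.5 cells. How often pairs of genes were detected together was read as the share of cells with both over the product of the single shares. This ratio had medians over libraries of 0.952 to 1.09 for the 10 pairs in mesenchymal and 0.94 to 1.12 in neural cells. Single libraries ran from 0.492 (Meis1 and Pbx2) to 1.63 (Meis1 and Meis3) in mesenchymal cells. For Meis1 and Meis2 this ratio was above 1 in 7 of 7 libraries in both classes, at 1.01 to 1.59 in mesenchymal and 1.03 to 1.80 in neural cells. In neural cells the ratio was also above 1 in 7 of 7 libraries for Meis1 and Pbx3, Meis2 and Meis3, and Meis2 and Pbx3, and below 1 in 7 of 7 for Meis3 and Pbx2 (0.822 to 0.994). These ratios describe sparse counts and carry no test.

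Meis2, Meis3 and Pbx3 differed between mesenchymal cells with and without genes that mark positions within the arches. Mesenchymal cells with a UMI of Dlx5 or Dlx6, which mark the ventral parts of the arches, were compared with the other mesenchymal cells of their library by CPM, as a description over the 6 libraries of E9.5 and E10.5. Meis2 was lower in them in 6 of 6 libraries, with a median log2 ratio of −0.40 (−0.45 to −0.22), and Meis3 in 6 of 6 with −0.68 (−0.93 to −0.40). Meis1 was higher in 2 and lower in 4 libraries there, and Pbx3 higher in 3 and lower in 3. In the E8.5 control Meis2 had the opposite sign, at 110 CPM in 193 Dlx5 or Dlx6 cells and 64.9 CPM in the others. In cells with Hand2, a gene of distal arch and outflow tract crest, Meis1 (−0.11), Meis2 (−0.34) and Meis3 (−0.40) were lower and Pbx3 (0.24) was higher in 6 of 6 libraries. Cells with Isl1 or Gata3 held more Meis2 (0.20) and more Pbx3 (0.20) in 6 of 6. Meis2 therefore had opposite signs in cells with Hand2 and in cells with Isl1 or Gata3. Pbx2 had no sign shared by all 6 libraries, with medians of 0.05 to 0.06 in these 3 subsets.

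Among neural cells, those with a UMI of Sox10, a gene of migrating and glial crest, held far less Meis2. Meis2 was at 87.5 and 75.0 CPM in Sox10 cells of the E9.5 control and null, at 78.7 and 71.0 CPM in those of the E10.5 controls and at 66.4 and 125 CPM in those of the nulls. Other neural cells of the same libraries held 264 and 206 CPM, 354 and 554 CPM, and 305 and 413 CPM, so the groups did not overlap. The median log2 ratio was −1.95, that of Meis1 −0.85 and that of Pbx3 −0.63, each lower in 6 of 6 libraries. At E8.5 Meis2 was at 53.3 CPM in Sox10 neural cells and 42.0 CPM in the others. Cells with the proliferation genes Mki67 or Top2a held less Meis3, with a median of −1.08 in neural and −0.74 in mesenchymal cells, and in neural cells less Meis2 (−1.01), again in 6 of 6 libraries. Pbx2 was slightly higher in proliferating cells of 6 of 6 libraries, by 0.22 in neural and 0.09 in mesenchymal cells.

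**Figure D4:**
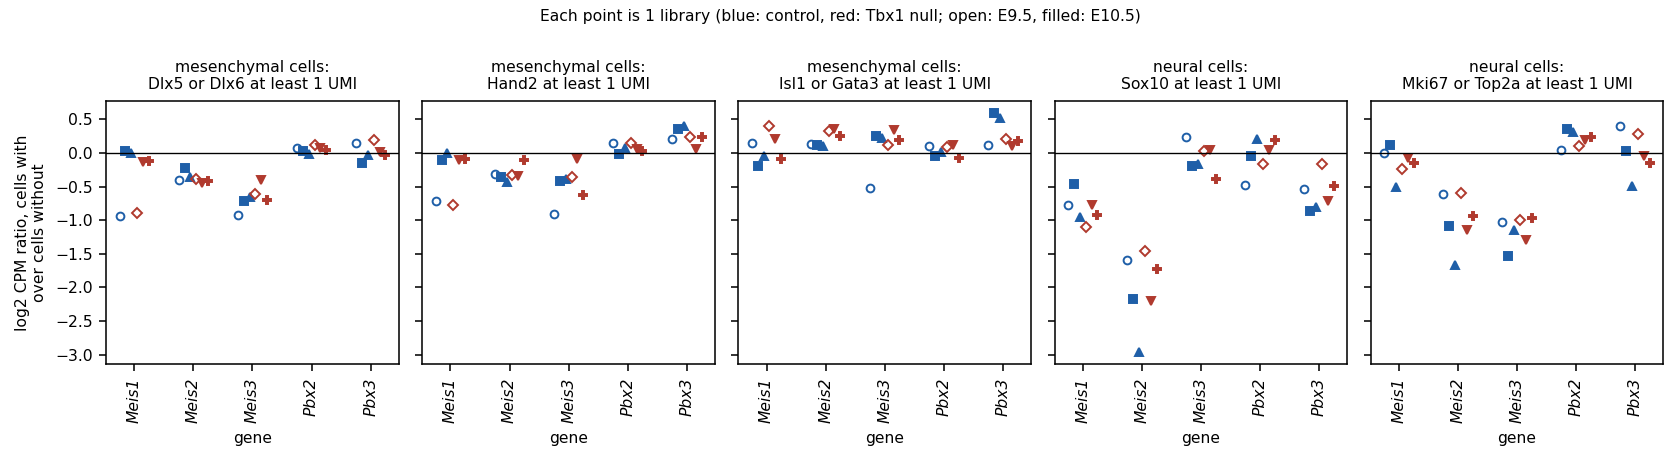
Log2 ratio of CPM in cells with a UMI of the named genes over cells without (y axis) for the 5 genes (x axis), in 3 subsets of mesenchymal and 2 of neural cells; each point is 1 library of E9.5 or E10.5. Meis2 and Meis3 lie below 0 in Dlx5 or Dlx6 cells, and Meis2 lies at −2.96 to −1.46 in Sox10 neural cells.

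Of 12 other TALE genes tested, none was called in Hoxa2 alone mesenchymal cells (0.788% of all genes), and 1 rose and 1 fell in group 3 mesenchymal cells (8.74% of all genes): Pknox1, another Meis family partner of Pbx proteins, by 0.47 (adjusted p 0.0102), and the repressor Tgif1 by −0.20 (adjusted p 0.011). The median of the list was −0.06, that of the 5 members 0.27 and that of all genes −0.01. Pknox1 also rose in group 3 neural cells (0.77, adjusted p 7.35e-05) and from E9.5 to E10.5 in mesenchymal cells (1.10, adjusted p 0.0187) and in neural cells (0.94, adjusted p 0.0301). In mesenchymal against neural cells, where 44.9% of all genes were called, 3 of the 12 were higher and 6 lower, among them Irx2 (−3.31, adjusted p 0.000253) and Irx5 (−2.11, adjusted p 0.000554). None of the 12 was called for Tbx1 genotype in either class, beside 0.0319% of all genes in mesenchymal and 0% in neural cells.

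Hox genes of groups 1 to 5 outside the classes check the Hox classes. In group 3 mesenchymal cells 10 of 11 rose and none fell (8.74% of all genes were called), with a list median of 3.44, among them Hoxd4 (4.85, adjusted p 8.63e-06) and Hoxb4 (4.56, adjusted p 2.69e-05). In Hoxa2 alone cells none of the 11 was called in the fit over both stages, beside 0.788% of all genes. By CPM, Hoxb2 was at 35.0 to 85.8 in Hoxa2 alone and at 6.24 to 51.9 in no Hox mesenchymal cells of E9.5 and E10.5. In group 3 neural cells, with 19.1% of all genes called, 9 of 10 rose with a median of 2.24. Against neural cells, with 44.9% called, 11 of 11 were lower in mesenchymal cells (median −2.79). Of the members Meis3 had this same pair of directions, higher with Hox group 3 in both classes and lower in mesenchymal than in neural cells. From E9.5 to E10.5, 6 of the 11 rose in mesenchymal cells, beside 24.6% of all genes called. Between genotypes at E10.5 none of the 11 was called in either class, beside 0.0319% of all genes in mesenchymal and 0% in neural cells. The list median log2 difference, null minus control, was 1.497 in mesenchymal and 0.386 in neural cells, against −0.0135 and 0.0249 over all genes.

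Retinoic acid sets the anterior limits of Hox expression and is a known inducer of Meis genes, so its pathway was read beside them. In group 3 mesenchymal cells, beside 8.74% of all genes called, 4 of 16 tested genes rose, among them the receptors Rara (0.61, adjusted p 3.78e-05) and Rarb (1.44, adjusted p 0.0349) and the binding protein Crabp1 (1.20, adjusted p 0.00284), and the degrading enzyme Cyp26a1 fell (−1.96, adjusted p 0.0002). In group 3 neural cells 6 of 14 rose and 1 fell, beside 19.1% of all genes. In Hoxa2 alone mesenchymal cells none of 16 was called, beside 0.788% of all genes. From E9.5 to E10.5, with 24.6% of all genes called, 5 of 17 rose and 2 fell in mesenchymal cells, with the synthesizing enzyme Aldh1a2 at 3.21 (adjusted p 0.0169). In the stage interaction of mesenchymal cells, where 12.9% of all genes were called, the group 3 difference of 2 of 17 was higher at E10.5 than at E9.5, among them Rarg (0.66, adjusted p 0.0134), and that of 4 was lower, among them Rarb (−2.43, adjusted p 0.00072).

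Over the 42 sums of 7 libraries, 2 cell classes and 3 Hox classes, the genes of closest pattern among 9485 were found by Pearson correlation of log2(CPM + 1), as a description in which points share libraries. Zfp503 was closest to Meis1 (r = 0.91), followed by Hoxaas2 (0.856) and Zfp703 (0.85). For Meis2 these were Asxl3 (0.873), Etv6 (0.859) and Usp34 (0.853), and for Meis3 Skap2 (0.881), Pax3 (0.881) and Soga3 (0.868). Pbx2 was closest to Mta1 (0.969), Lemd2 (0.966) and Mex3d (0.961), and Pbx3 to 2700081O15Rik (0.966), Galnt2 (0.959) and Sec63 (0.958). Among the members themselves, Pbx2 and Pbx3 were most alike (0.889), and Meis2 and Meis3 least (−0.181).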

How the data were processed

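The authors deposited, per library, a matrix of UMI counts with its genes and barcodes, made with Cell Ranger 6.0.1 on mm10 per the labels; the study clustered these with Seurat and integrated them with RISC, and neither result was used here. The members and gene lists were chosen with earlier results of these data known. Barcodes with fewer than 1000 genes or over 10% of UMIs from mitochondria were dropped, and Scrublet (in scanpy 1.11.5, 0.8% expected doublets per 1000 cells) removed doublets. The 36721 barcodes of the control libraries gave 29635 kept cells. Cells that met both class rules entered neither class.

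Sums of UMI counts over the cells of a class in each library were tested with edgeR 4.0.16 (TMM, filterByExpr, quasi-likelihood test) in R 4.3.3, with Benjamini-Hochberg adjustment over all genes tested and a threshold of 0.05; DESeq2 1.42.0 was an alternative. The E8.5 library entered no main test, and 1 alternative of mesenchymal against neural cells added it. Classes of 1 library were compared with library as a block. Fits after thinning used cell and Hox classes redrawn from the thinned counts, whereas shares of thinned cells used the classes of full depth. Interactions with stage, stage in neural cells, fits on 1 stage or Hox class and marker subsets were added after the data were seen. Sums do not separate more expressing cells from more mRNA per cell. The E10.5 replicates are separate libraries, so p-values of genotype measure the spread between pools of embryos. With library as a block, p-values measure the spread over libraries of differences between parts of the same pool. Stage fits and fits on E9.5 alone had 1 E9.5 library per genotype, so no spread between E9.5 pools of 1 genotype entered them. The mesenchymal fits of genotype, stage, Hox group 3 and the interactions, and the fit of cell class, were run on simulated counts. The outcome is not given here, and the fits on neural cells alone were not simulated. Likeness used genes with a mean of at least 5 CPM. The named genes were the 5 members, the TALE, Hox and retinoic acid lists, with up to 4 retinoic acid examples a comparison, and the 3 closest genes per member. Poisson intervals cover counting error only. Reads on the opposite strand of a gene could not be checked, as how counting used strand is not given in the sources used here. Some genes of these families are not reported here.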

Additional observations from a re-analysis of the deposited data

Results flagged for a closer look

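The difference between Hox group 3 and no Hox cells changed with stage in 3 results, each by an edgeR interaction within libraries that was added after the data were seen. In mesenchymal cells 2 of the 5 members were called, beside 12.9% of 15296 genes, and in neural cells 1 of 5, beside 3.47% of 13573. Other listed genes were called there too. In mesenchymal cells 4 of 12 other TALE genes were lower and 1 higher, and 3 of 11 other Hox genes were lower and 0 higher. The list medians were −0.47 and −1.92, against −0.20 for the 5 members. In neural cells 0 of 12 TALE genes were called, and 3 of 11 Hox genes were lower. In mesenchymal cells the Meis1 difference at E10.5 was that at E9.5 plus −2.19 on the log2 scale (SE 0.16, adjusted p 4.32e-05). The Meis3 difference changed by −0.52 (SE 0.12, adjusted p 0.0201), and the call was lost in 6 of 13 alternatives: after thinning to 5000 UMIs (−0.04), with doublets kept (−0.24) and without 4 of the 6 libraries in turn. In neural cells the Meis1 difference changed by −1.21 (SE 0.15, adjusted p 7.41e-05), and after thinning, with classes redrawn from the thinned counts, by −0.16 (adjusted p 0.80). Stage and dissection cannot be told apart in these results.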

How the results depend on the processing

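Of the member values recomputed under other settings, 749 kept their direction and side of the threshold, 27 lost and 37 gained a call, and 42 changed sign. Of these 42, 41 were called neither before nor after, and 1 became a call: Meis2 in the neural stage interaction, at 0.48 after thinning to 5000 UMIs. The causes were not tested. Counts of genes called that moved by over 1.5 times follow. The range over left-out libraries comes last and is given for every comparison, moved or not. No left-out count moved so far for neural group 3 or for mesenchymal against neural cells. For Tbx1 null in mesenchymal cells (5 called): DESeq2 640, no filter 1210, doublets kept 18, looser gene and stricter mitochondrial limits 13, stricter classes 17, thinned cells 23, E9.5 added 0, no Hox cells 36, Hoxa2 alone cells 25, left out 34 to 1317. In neural cells (0): DESeq2 44, no filter 154, no Hox cells 3, Hoxa2 alone cells 13, left out 2 to 152. With the replicate number as a block, 283 mesenchymal and 28 neural genes were called and no member (Meis3 adjusted p 0.089 and 0.43). Same-numbered libraries deviated together with r of 0.112 and 0.213, in 2 pairs only, so the numbers were not taken to pair them. Group 3 against no Hox, mesenchymal (1232): doublets kept 1933, thinned 652, control libraries 299, null libraries 143, E9.5 3229, left out 782 to 1000. Hoxa2 alone (111): DESeq2 395, no filter 221, stricter classes 167, thinned 39, control 33, null 1, 2 UMIs for a Hox class 433, E9.5 920, E10.5 2820, left out 12 to 190. Neural group 3 (2252): control 608, null 665, left out 1673 to 1975. Mesenchymal against neural (6739): control 2932, null 2869, left out 5280 to 6545. Stage, mesenchymal (4000): Hoxa2 alone cells 2226, left out 39 to 5512. Genotype by Hox class (70): no filter 426, doublets kept 139, stricter classes 137, left out 84 to 300. Stage by group 3, mesenchymal (1972): DESeq2 1249, no filter 4433, thinned 318, left out 391 to 2546. The same, neural (471): DESeq2 233, no filter 797, stricter classes 268, thinned 43, left out 129 to 498. Stage, neural (1346): DESeq2 2679, no filter 3152, no Hox cells 726, Hoxa2 alone cells 848, left out 0 to 1855. DESeq2 moved the share of calls that were higher from 20% to 73.3% for the mesenchymal genotype, from 25.2% to 42.3% for Hoxa2 alone and from 59.6% to 47.7% for stage in neural cells. The median share of mesenchymal cells with a UMI, 43.0% for Meis1, 75.8% for Meis2, 9.94% for Meis3, 35.2% for Pbx2 and 32.7% for Pbx3, was 27.8%, 62.4%, 5.57%, 22.1% and 20.6% at 3000 UMIs and 76.7%, 94.98%, 35.5%, 80.1% and 70.6% without thinning.

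The 41 uncalled sign changes were as follows, as log2 differences, with left-out libraries as the range over them. For Tbx1 null in mesenchymal cells, Meis1 was 0.016 with stricter classes, 0.12 when thinned and −0.21 to 0.073 with a library left out, and Pbx3 0.059 in Hoxa2 alone cells and −0.25 to 0.038. In neural cells Meis1 was −0.095 to 0.32, and Pbx3 0.014 without a filter, 0.0040 with doublets, 0.073 in no Hox cells and −0.15 to 0.072. For group 3 against no Hox, Pbx2 was −0.017 at E9.5 in mesenchymal cells, and in neural cells 0.012 without a filter, 0.13 at E9.5 and −0.082 to 0.023, with Meis1 at −0.055 at E10.5. For Hoxa2 alone, Meis3 was −0.066 when thinned, −0.053 in null libraries, −0.31 at E10.5 and −0.11 to 0.18, and Pbx2 −0.033 when thinned and −0.067 at E9.5. Meis1 in mesenchymal against neural cells was 0.0052 in control libraries and −0.23 to 0.19. For stage, Meis3 was −0.91 to 0.36 in mesenchymal cells, and in neural cells −0.0025 with stricter classes, −0.089 in group 3 cells and −0.11 to 0.31, with Meis2 at −0.43 in Hoxa2 alone cells and Pbx2 at −0.0024 to 0.47. For genotype by Hox class, Meis3 was −0.087 with stricter classes, −0.15 when thinned and −0.20 to 0.35, Meis2 −0.13 to 0.44 and Pbx2 −0.10 to 0.076. For stage by group 3, Pbx3 was −0.022 to 0.13 in mesenchymal and Meis2 −0.37 to 0.084 in neural cells.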
